A study of Mus musculus with 2 samples.

Results

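Pecam1, Cdh5, Cldn5, Esam, Jam2, Emcn, Plvap, Ocln and Tjp1 are 9 genes whose proteins sit at the contacts between cells of the vessel wall or on the surface of endothelial cells (ECs). They were chosen by name for their place in the endothelial barrier, with earlier results of these data known, among the 32285 genes of the count table, of which 23582 had at least 1 transcript. The data are single-cell RNA counts from Lewis lung carcinoma (LLC), a mouse lung tumor line grown under the skin of C57BL/6 mice. The control group, sGC-Ctr, carried Gucy1b1 flox/flox. The deletion group, sGC-ΔPC, is labelled Cspg4-CreER T2::Gucyc1b1 flox/flox (spelling as deposited), so that Gucy1b1, which encodes the β1 subunit of the nitric oxide receptor soluble guanylate cyclase (sGC), can be deleted in cells that use the Cspg4 promoter. That promoter is active in NG2-positive pericytes, though not in pericytes alone. Tamoxifen was given to mice of both groups in 5 doses, when they were 4 weeks old. LLC cells were injected at an age of 8 weeks and the tumors were dissected 2 weeks later. Each group is 1 library made from 3 pooled tumors. Genotype and library therefore cannot be told apart, no test between groups is possible, and every 95% interval given here covers counting error only.

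A sheet of ECs holds blood inside a vessel because neighboring cells are joined by adherens junctions, built on VE-cadherin (Cdh5), and by tight junctions, in which claudin-5 (Cldn5) and occludin (Ocln) are anchored to the scaffold ZO-1 (Tjp1). PECAM-1 (Pecam1, CD31), ESAM (Esam) and JAM-B (Jam2) are adhesion proteins of the immunoglobulin superfamily that gather at the same borders. Endomucin (Emcn) is a sialomucin that covers the luminal surface, and PLVAP (Plvap) forms the diaphragms of fenestrae and caveolae in leaky capillaries, tumor capillaries among them.

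In the sGC-Ctr library, 487859656 unique molecular identifiers (UMIs, each a transcript counted once) were spread over 15007 barcodes (median 23337). In the sGC-ΔPC library, 436352742 were spread over 25631 (median 8019). Filters on mitochondrial share and depth kept 12220 and 22498 barcodes. Cell classes were gated barcode by barcode on marker genes, and the EC gate (at least 3 of 12 markers found, at least 1000 CPM in sum, where CPM is UMIs per 1000000 UMIs) used none of the 9 genes. It took 77 barcodes of sGC-Ctr and 114 of sGC-ΔPC. Of these, 12 (15.6%) and 55 (48.2%) carried 475 CPM or more of Rhox5, Krt8, Krt18 and Hmga2, which mark the cancer cells. The 65 and 59 barcodes below that limit, with medians of 24901 and 18310 UMIs, are called low-cancer ECs here and give the main values. Among them 7 and 4 also passed the gate of another class. The libraries share 131 of 40507 barcode sequences, among them 0 of the low-cancer ECs of sGC-Ctr and 1 of sGC-ΔPC. The targeted gene went with its label: Gucy1b1 stood at 132 CPM (99.9 to 171) in pericytes of sGC-Ctr, from 57 UMIs, and at 39.9 CPM (19.1 to 73.4), from 10 UMIs, in those of sGC-ΔPC.

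RefSeq promoter sequence (GRCm38.p6, the same assembly as mm10) was at hand for 4 of the 9 genes. The 250 bases before the start site of 3 of them are shown, because they set the promoters of Cldn5 and Emcn, at least 4-fold higher in ECs than in any other class, beside that of Tjp1, found in most classes. Capitals mark AGGAAG, a core that ETS factors can bind, and GGGCGG, the GC box, on either strand. The windows are chr16:18776597-18776846 on the plus strand for Cldn5, chr3:137340828-137341077 on the plus strand for Emcn, and chr7:65371245-65371494 on the minus strand for Tjp1, at a start site inside the span of the gene.
Cldn5: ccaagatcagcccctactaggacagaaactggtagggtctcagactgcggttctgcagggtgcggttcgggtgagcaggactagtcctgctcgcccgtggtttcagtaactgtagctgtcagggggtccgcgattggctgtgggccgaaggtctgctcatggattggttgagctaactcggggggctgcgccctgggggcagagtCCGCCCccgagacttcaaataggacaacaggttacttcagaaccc
Emcn: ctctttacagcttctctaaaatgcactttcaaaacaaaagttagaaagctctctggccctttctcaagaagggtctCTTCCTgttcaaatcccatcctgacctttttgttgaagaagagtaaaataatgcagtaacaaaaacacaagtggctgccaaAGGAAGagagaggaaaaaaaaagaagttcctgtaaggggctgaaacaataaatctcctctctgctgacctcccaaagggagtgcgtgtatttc
Tjp1: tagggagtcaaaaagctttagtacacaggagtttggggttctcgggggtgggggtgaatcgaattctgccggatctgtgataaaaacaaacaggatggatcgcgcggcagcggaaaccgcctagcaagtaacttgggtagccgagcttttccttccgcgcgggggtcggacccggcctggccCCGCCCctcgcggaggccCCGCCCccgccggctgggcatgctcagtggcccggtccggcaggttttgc
Emcn held 2 matches of AGGAAG and no GC box, in sequence of 40.8% G and C with 1 CpG. Tjp1 held 2 GC boxes, 63.2% G and C and 22 CpGs, and Cldn5 held 1 GC box, 59.6% and 12 CpGs. Over all 32851 promoters of the same length, 29.5% held AGGAAG and 32.7% held GGGCGG, so both are common, and the 3 windows share no single pattern of these motifs.

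The 9 genes fell into 4 patterns across cell classes. Pecam1, Cdh5, Cldn5, Jam2, Emcn and Plvap had an observed CPM at least 4-fold higher in low-cancer ECs than in each of 8 other classes in both libraries, and are called EC-restricted by that rule. Esam was high in ECs and also in pericytes, Tjp1 was found in nearly every class, and Ocln was seldom found at all. ECs thus had UMIs of 8 of the 9 genes. Ocln, known as a tight junction gene of epithelia and of brain endothelium, had 0 UMIs in the 65 and in the 59 low-cancer ECs. In each library taken alone, that count does not set its level apart from that of cancer cells. Of 6545 genes with at least 50 UMIs in these ECs, 2.8% met the 4-fold rule, against 6 of the 8 genes that reached that minimum. For 2 of the 6 the counts allow a smaller fold. Pecam1 stood 6.20-fold (3.00 to 15.5) over natural killer cells of sGC-ΔPC. Jam2 stood 9.37-fold (3.60 to 34.8) over dendritic cells of sGC-ΔPC, and over natural killer cells, where it had 0 UMIs in 10 and 8 barcodes, it was at least 2.52-fold higher in sGC-Ctr and 2.44-fold in sGC-ΔPC (against 3 counts per class).

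**Figure D1:**
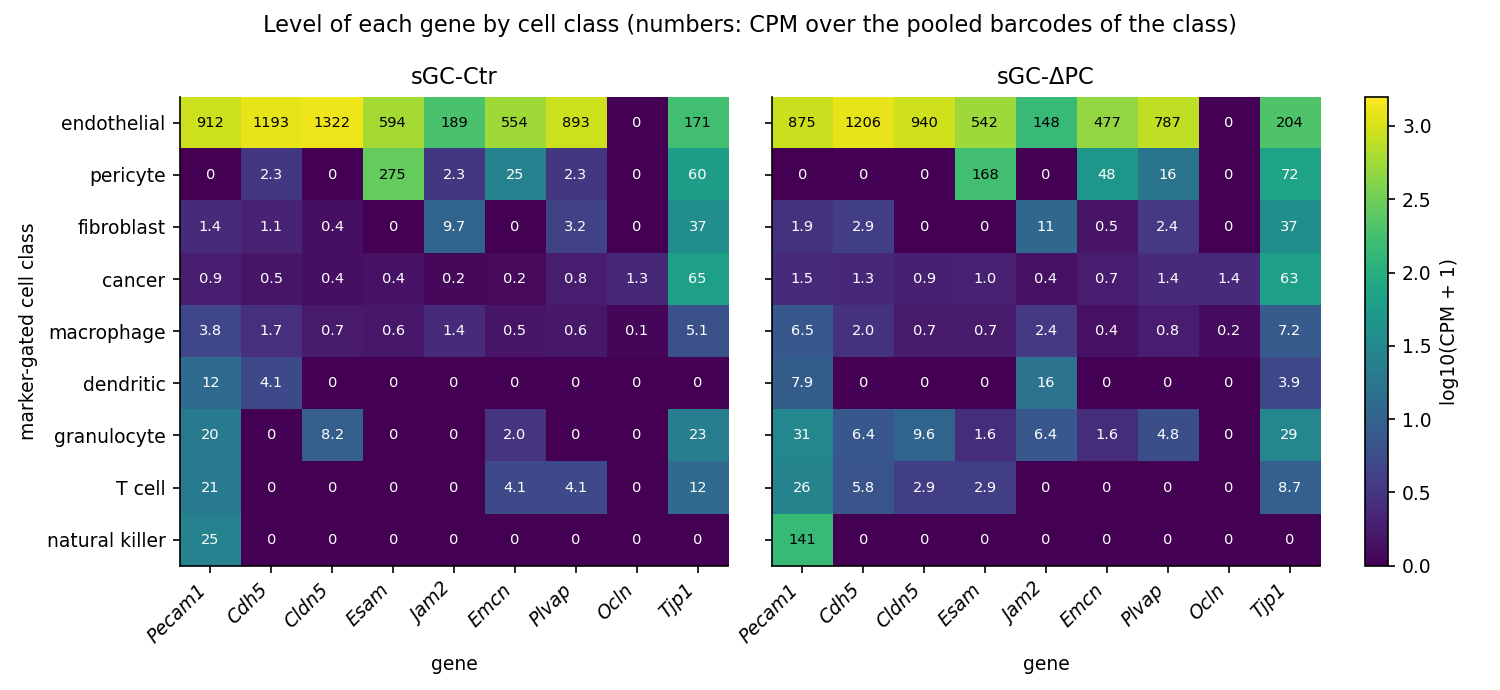
Level of each gene in each marker-gated class of the sGC-Ctr (left) and sGC-ΔPC (right) library, as CPM over the pooled barcodes of the class (number) and as log10(CPM + 1) (color). The top row, low-cancer ECs, is the brightest for all genes but Ocln, and Esam is bright in pericytes too, at 275 and 168 CPM.

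Among the adhesion genes, Cdh5 (chr8:104101625-104144511) showed the cleanest pattern. It reached 1193 CPM (2136 UMIs, in 95.4% of barcodes) in low-cancer ECs of sGC-Ctr and 1206 CPM (1445 UMIs, in 96.6%) in those of sGC-ΔPC. No other class exceeded 6.43 CPM. Pecam1 (chr11:106654217-106750628) reached 912 and 875 CPM in ECs. It was also found at a low level in leukocytes, where CD31 is known to be present: granulocytes had 20.5 CPM (9.81 to 37.6) and 30.5 CPM (18.4 to 47.7), T cells 20.5 and 26.1 CPM, and macrophages 3.82 and 6.47 CPM. The intervals of granulocytes and T cells overlapped. Natural killer cells had 25.1 CPM from 1 UMI in 10 barcodes of sGC-Ctr, and 141 CPM (56.8 to 291) from 7 UMIs in 8 barcodes of sGC-ΔPC. None of the other 8 genes had a UMI in these natural killer barcodes, and pericytes had 0 UMIs of Pecam1 in both libraries.

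Esam (chr9:37528078-37538319) reached 594 CPM (559 to 631) in ECs of sGC-Ctr and 542 CPM (501 to 586) in those of sGC-ΔPC. Pericytes came next, with 275 CPM (228 to 330) from 119 UMIs in 35 barcodes and 168 CPM (121 to 227) from 42 UMIs in 25 barcodes, and no further class exceeded 2.9 CPM. Esam was found in 91.4% and 72.0% of pericyte barcodes. The EC level was 2.16-fold (1.78 to 2.63) and 3.24-fold (2.37 to 4.53) the pericyte level. Pecam1 and Cldn5 had 0 UMIs in these same pericyte barcodes of either library, while Cdh5 had 1 and 0. The pericyte level of Esam was lower in sGC-ΔPC, at a log2 ratio of -0.72 (-1.26 to -0.20). The share of all genes that were as much lower in pericytes was not counted.

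Jam2 (chr16:84774123-84825928) reached 189 and 148 CPM in ECs. Fibroblasts had 9.67 CPM (6.37 to 14.1) from 27 UMIs and 11.03 CPM (6.99 to 16.5) from 23 UMIs, and were next in order in sGC-Ctr. In sGC-ΔPC dendritic cells stood at 15.8 CPM from 4 UMIs, with an interval of 4.29 to 40.4 that spans the fibroblast level. Only 64.3% of all Jam2 UMIs in sGC-Ctr and 36.3% in sGC-ΔPC lay in low-cancer ECs. Cancer cells and macrophages, the most numerous classes, held 13.5% and 7.59% of them in sGC-Ctr and 28.7% and 12.1% in sGC-ΔPC, at levels of no more than 2.37 CPM.

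The 3 tight junction genes had 3 different patterns. Cldn5 (chr16:18776847-18778262), a gene that spans 1.4 kb and encodes the main claudin of ECs, reached 1322 CPM (1269 to 1376) in ECs of sGC-Ctr and 940 CPM (886 to 996) in those of sGC-ΔPC. Granulocytes came next at 8.19 and 9.64 CPM, from 4 and 6 UMIs, so that ECs stood 161-fold (63.0 to 593) and 97.5-fold (44.6 to 266) higher. Tjp1 (chr7:65296165-65527781) was highest in ECs too, at 171 CPM (153 to 192) and 204 CPM (180 to 232). Cancer cells had 64.9 and 63.3 CPM and pericytes 60.2 CPM (39.3 to 88.2) and 71.8 CPM (42.6 to 114), which did not differ beyond counting error. Fibroblasts followed with 36.5 and 36.9 CPM. Cancer cells held 94.6% and 91.2% of all Tjp1 UMIs, and ECs of any kind only 1.21% and 1.23%. Cancer cells were 7350 of 12220 and 11719 of 22498 kept barcodes, with medians of 51140 and 16008 UMIs.

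Ocln (chr13:100496507-100552718) was counted 559 and 490 times in cancer cells, or 1.34 CPM (1.23 to 1.46) and 1.43 CPM (1.31 to 1.56), and was found in 6.94% and 3.87% of the barcodes. These held 95.4% and 92.1% of its UMIs. With 0 UMIs in low-cancer ECs, its level there could be up to 1.67 CPM in sGC-Ctr and 2.50 CPM in sGC-ΔPC (3 counts of the total), a limit that lies above the level in cancer cells. A lower level of Ocln in ECs than in cancer cells was therefore not detectable in either library taken alone. The libraries were not pooled for this limit. The gated ECs with more cancer RNA also held 0% of its UMIs in both libraries.

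Of the surface genes, Emcn (chr3:137341067-137432185) reached 554 and 477 CPM in ECs. Pericytes were next at 25.5 CPM (12.7 to 45.6) from 11 UMIs and 47.9 CPM (24.7 to 83.7) from 12 UMIs, and the intervals of the libraries overlapped. Plvap (chr8:71497765-71511752) reached 893 and 787 CPM in ECs. In sGC-ΔPC pericytes it had 16.0 CPM (4.35 to 40.9) from 4 UMIs, and no other class exceeded 4.82 CPM. All levels are counts from the 3′ end of transcripts, and levels of different genes are not ranked against each other.

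A smaller share of the transcripts of each EC-restricted gene, and of Esam, lay in ECs of sGC-ΔPC than of sGC-Ctr. ECs of any cancer RNA content held 92.9% of Cldn5 UMIs in sGC-Ctr and 76.1% in sGC-ΔPC, 89.0% and 72.6% for Cdh5, 89.0% and 67.3% for Emcn, 83.8% and 65.2% for Plvap, 74.6% and 56.2% for Pecam1, 70.0% and 39.4% for Jam2, and 77.7% and 59.6% for Esam. In the barcodes gated as cancer cells these genes were rare but higher in sGC-ΔPC: Emcn was counted 89 and 252 times, or 0.214 and 0.736 CPM, a log2 ratio of 1.79 (1.43 to 2.15), Cdh5 and Cldn5 both had 1.31, Jam2 1.26, Esam 1.18, Plvap 0.89 and Pecam1 0.73. Tjp1 and Ocln, whose UMIs lay mostly in cancer cells, had log2 ratios of -0.04 (-0.06 to -0.01) and 0.09 (-0.08 to 0.27) in the same barcodes. The share of all genes, or of other EC-restricted genes, that were as much higher in these barcodes was not counted. The part of free RNA or of mixed droplets in these values was not tested.

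The comparison of the libraries asks how the barrier genes of ECs stand in tumors of mice with the Cspg4-driven deletion of Gucy1b1. In low-cancer ECs, by CPM over the pooled barcodes, Cldn5 had the largest difference of the 8 genes. By the mean of each barcode's CPM Jam2 did (-0.75, against -0.60 for Cldn5). That mean takes in 1 sGC-Ctr barcode with 2113 CPM of Jam2, where the median was 161 CPM. The ratio without that barcode was not computed. Over all low-cancer ECs pooled, Cdh5 and Pecam1 had nearly the same level in both libraries. Cldn5, from 2368 and 1126 UMIs, stood at 1322 CPM in sGC-Ctr and 940 CPM in sGC-ΔPC, a 1.41-fold lower level or a log2 ratio of -0.49 (-0.60 to -0.39). The study describes claudin-5 in ECs as largely unaffected, from the RNA of its own EC cluster and from protein staining in replicate mice. Jam2 had a ratio of -0.36 (-0.63 to -0.09), Emcn of -0.22 (-0.37 to -0.07), Plvap of -0.18 (-0.30 to -0.07) and Esam of -0.13 (-0.27 to 0.01). Pecam1 had -0.06 (-0.17 to 0.05) and Cdh5 0.02 (-0.08 to 0.11). Tjp1 had 0.25 (0.01 to 0.50), an interval that barely leaves out 0 and takes it in under several other settings.

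Of the 8 genes, 0 passed 1.5-fold in low-cancer ECs, against 4.37% of 6545 genes lower and 5.01% higher by that much. A ratio below 0 was found in 6 of 8 genes, against 49.4% of all genes. The median ratio of the 8 was -0.16, beside 0.01 for all genes tested, with the middle of all genes (quartiles) between -0.20 and 0.22. The 177 other genes at least 4-fold higher in ECs than elsewhere had a median of -0.10, with 106 below 0, and the 12 gate markers a median of -0.03. Ratios as low as that of Cldn5 were found in 6.74% of all genes and in 26 of the 183 EC-restricted genes, and as low as that of Jam2 in 12.3% and 38. Many of these genes have fewer UMIs and so more counting error, and shares at like UMIs were not counted.

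**Figure D2:**
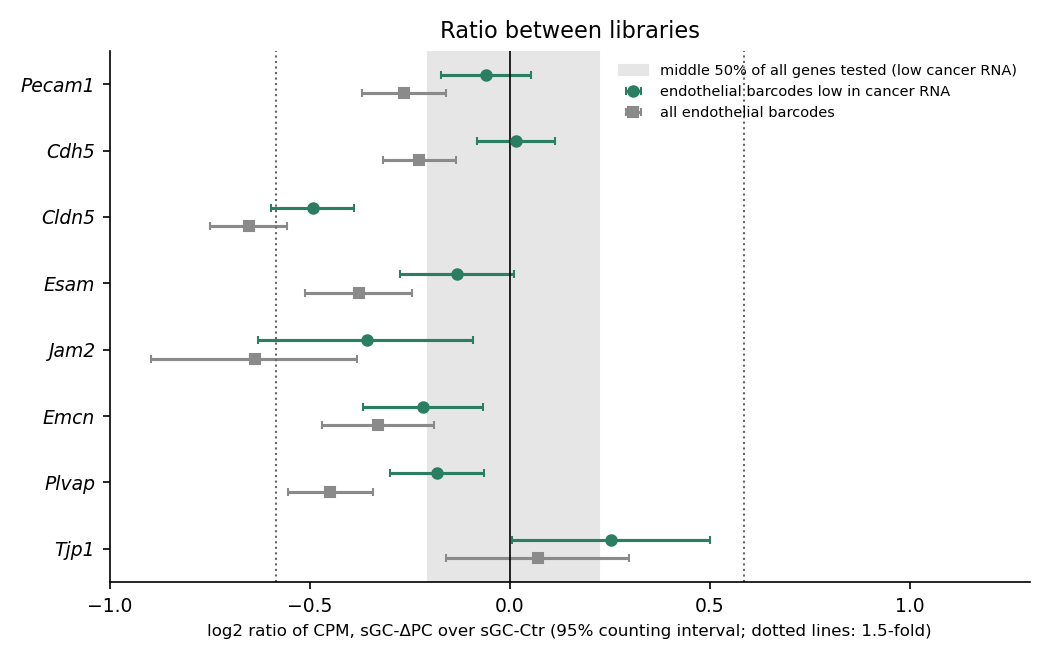
Log2 ratio of the CPM of 8 genes in sGC-ΔPC over sGC-Ctr with 95% counting intervals, in low-cancer ECs (circles) and in all gated ECs (squares). The gray band holds the middle 50% of all genes tested in low-cancer ECs, dotted lines mark 1.5-fold, and Cldn5 lies left of the band in both sets of barcodes.

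The level of Cldn5 varied widely from barcode to barcode. In sGC-Ctr it ran from 0 to 4213 CPM, with a median of 864 and quartiles of 286 and 1733. In sGC-ΔPC it ran from 0 to 3073 CPM, with a median of 668 and quartiles of 214 and 1194. The ranges overlapped over most of their length, and 8 and 9 barcodes had no UMI. The spread beyond counting error, as a coefficient of variation, was 90.5% and 71.9% for Cldn5 and 90.3% and 79.4% for Jam2, against 26.5% and 25.4% for Pecam1, 34.8% and 32.7% for Cdh5 and 30.6% and 31.1% for Esam. Plvap, Emcn and Tjp1 lay between 38.7% and 48.6%. Of the 8 genes, Cldn5 and Jam2 thus differed most among ECs of 1 library, and at the main settings also between the libraries by pooled CPM. For Jam2 the second rank depended on the setting. Thinned to 2000 UMIs, the log2 ratio between libraries was 0.61 for Tjp1 and -0.17 for Jam2. Per UMI of the gate markers it was 0.35 for Tjp1 and -0.26 for Jam2.

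Jam2 ran from 0 to 2113 CPM with a median of 161 in sGC-Ctr and from 0 to 729 CPM with a median of 54.8 in sGC-ΔPC, with 12 and 23 barcodes at 0. Emcn had a median of 504 CPM in sGC-Ctr and 466 CPM in sGC-ΔPC, and its ranges, 0 to 1308 and 0 to 1237, were nearly the same, but 3 of 65 and 12 of 59 barcodes had none. Plvap had medians of 835 and 629 CPM. Pecam1 (930 and 841), Cdh5 (1099 and 1041) and Esam (566 and 498) had medians closer to each other, and Tjp1 had 142 and 145 CPM. For all 8 genes the barcodes of both libraries overlapped.

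**Figure D3:**
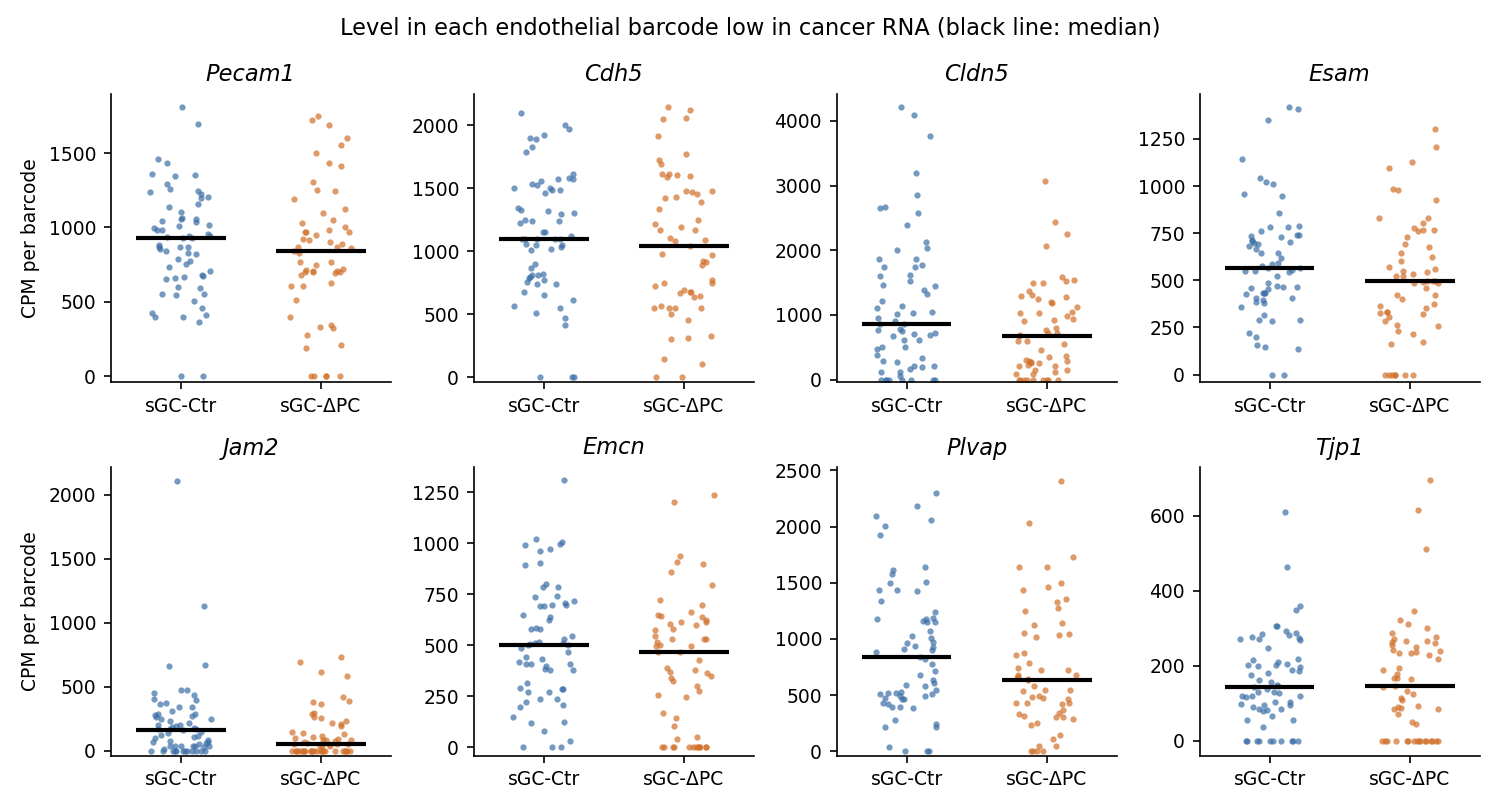
CPM of 8 genes in each low-cancer EC barcode, 65 of sGC-Ctr (blue) and 59 of sGC-ΔPC (orange), with the median as a black line; each panel has its own linear axis. The barcodes of both libraries overlap in every panel, with Cldn5 reaching 4213 and 3073 CPM and with 3 and 12 barcodes at 0 for Emcn.

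The libraries differ in depth, and the share of ECs with at least 1 UMI of a gene was therefore also counted with every barcode thinned to 2000 UMIs, which left out 0 and 4 of the low-cancer ECs. Before thinning, Emcn was found in 95.4% and 79.7% of ECs and Jam2 in 81.5% and 61.0%. After thinning, Emcn was found in 63.1% (50.2 to 74.7) and 52.7% (38.8 to 66.3), Jam2 in 29.2% and 21.8%, Cldn5 in 66.2% and 67.3%, Cdh5 in 76.9% and 85.5%, and Pecam1 in 78.5% and 72.7%. The intervals of the libraries overlapped for each of the 8 genes. In thinned granulocytes, which should lack the tight junction genes (median depth 2257 and 2483 UMIs before thinning), Cldn5 was found in 0.714% and 1.72% and Tjp1 in 5.71% and 5.17%, so the shares in ECs lie above that background. The median EC held 8 of the 9 genes in both libraries, and 5 of 9 after thinning.

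Pairs of the 8 genes varied together to different degrees. Across low-cancer ECs the 28 pairs had Spearman correlations with a median of 0.26 in sGC-Ctr and 0.30 in sGC-ΔPC, a description of 65 and 59 barcodes that share library and depth. Jam2 with Plvap (0.53 and 0.54), Esam with Plvap (0.51 and 0.53), Pecam1 with Cdh5 (0.56 and 0.50) and Esam with Jam2 (0.49 and 0.58) were the closest pairs by the lower value of the libraries. Cldn5 with Plvap had -0.16 and 0.02, and Cldn5 with Esam -0.07 and 0.17, while Cldn5 with Emcn had 0.46 and 0.37. Depth moved with the levels. The correlation of CPM with total UMIs was 0.30 and 0.33 for Cldn5, and -0.01 and 0.53 for Jam2. It was 0.22 and 0.43 for Cdh5, 0.29 and 0.36 for Emcn, and 0.25 and 0.49 for Tjp1. Esam had 0.04 and 0.26, Plvap 0.03 and 0.31, and Pecam1 0.14 and 0.21.

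The 9 genes were then set against markers of EC subtypes, which the gate did not use. Tip cells, the leading cells of a sprout, were taken as the 25 and 26 low-cancer ECs with at least 2 of Esm1, Apln, Angpt2, Pgf, Kcne3 and Cxcr4 and at least 1000 CPM of them in sum. Jam2 was lower in tip-marker-high ECs than in the rest by a log2 ratio of -0.79 (-1.12 to -0.46) in sGC-Ctr and -1.45 (-1.92 to -0.996) in sGC-ΔPC. Plvap had -0.34 (-0.49 to -0.20) and -0.44 (-0.63 to -0.25), and Esam -0.32 and -0.42. Cdh5 and Cldn5 went the other way, with 0.30 (0.18 to 0.43) and 0.17 (0.01 to 0.32) for Cdh5 and 0.58 and 0.20 for Cldn5. Emcn had 0.43 and 0.22, and Tjp1 0.37 and 0.81. The sign was the same in both libraries for all 8 genes, though the interval held 0 for Pecam1 in sGC-Ctr (0.02) and for Emcn in sGC-ΔPC. How many of all genes kept their sign in both libraries was not counted, so this agreement is not particular to the 8. The levels of Cdh5, Cldn5, Emcn and Tjp1 also rose with total UMIs in both libraries, as given above. Depth inside and outside the subsets was not compared, and its part in ratios by subset was not tested. Barcodes of 1 library are not replicates, and no test was run.

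Venous markers (Nr2f2, Ackr1, Vwf, Selp, Ephb4; 21 and 15 ECs with at least 2 of them and 500 CPM) went with higher levels of Plvap and Jam2. Plvap stood higher in venous-marker-high ECs by 0.55 (0.40 to 0.69) and 0.71 (0.52 to 0.90), and Jam2 by 0.67 and 0.81. Pecam1 had 0.29 and 0.32, and Cdh5 0.39 and 0.27. For Cldn5 the values of the libraries were apart, -0.05 (-0.18 to 0.08) and 0.58 (0.41 to 0.76). Arterial markers (Gja5, Gja4, Sox17, Hey1, Bmx, Sema3g, Efnb2; 16 and 14 ECs with at least 2 of them and 300 CPM) went with a higher level of Cdh5, by 0.38 (0.23 to 0.52) and 0.58 (0.42 to 0.73). Plvap was higher there as well, by 0.24 (0.08 to 0.41) and 0.29 (0.10 to 0.49), and Jam2 had 0.33 (-0.05 to 0.68) and 0.66 (0.20 to 1.11), so higher Plvap and Jam2 were not seen with venous markers alone.

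**Figure D4:**
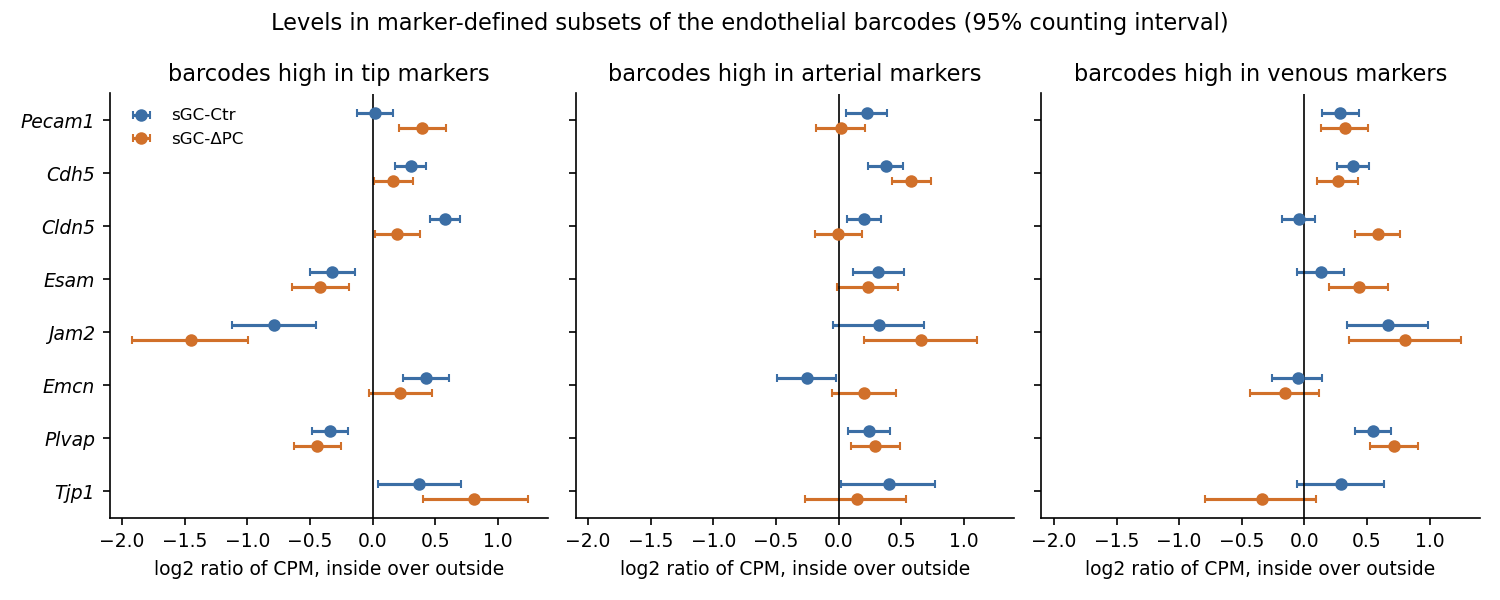
Log2 ratio of CPM in low-cancer ECs inside a marker-defined subset over those outside it, in sGC-Ctr (blue) and sGC-ΔPC (orange), with 95% counting intervals. Jam2, Esam and Plvap lie left of 0 in the tip panel in both libraries, and Plvap and Jam2 lie right of 0 in the venous panel.

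Values between the libraries are given by subset for Cldn5, Jam2, Cdh5 and Pecam1, and whether subsets differ in them was not tested. In tip-marker-high ECs Cldn5 had 1604 CPM in sGC-Ctr and 990 CPM in sGC-ΔPC, a log2 ratio of -0.70 (-0.83 to -0.56), and outside them 1073 and 864 CPM, -0.31 (-0.48 to -0.15). In venous-marker-high ECs it had 1292 and 1235 CPM, -0.07 (-0.24 to 0.11), and outside them 1335 and 824 CPM, -0.70 (-0.83 to -0.57). In arterial-marker-high ECs the ratio was -0.65 (-0.85 to -0.45), and outside them -0.45 (-0.57 to -0.33). Jam2 had a ratio of -0.65 (-1.11 to -0.19) in tip-marker-high ECs and of 0.02 (-0.32 to 0.35) outside them. For arterial markers Jam2 had -0.18 (-0.65 to 0.30) inside and -0.51 (-0.85 to -0.18) outside. For venous markers it had -0.26 (-0.69 to 0.16) inside and -0.39 (-0.75 to -0.05) outside. Cdh5 stayed between -0.09 and 0.11 in all 6 of these subsets. Pecam1 had 0.08 (-0.07 to 0.23) in tip-marker-high ECs and -0.30 (-0.48 to -0.12) outside them. For arterial markers it had -0.22 (-0.44 to -0.002) inside and -0.01 outside, and for venous markers -0.03 and -0.06. The summed tip markers themselves were 1320 CPM in sGC-Ctr and 1959 CPM in sGC-ΔPC, the venous markers 494 and 424 CPM and the arterial markers 353 and 387 CPM. Single markers went apart: log2 ratios were -2.93 for Ackr1 (80 and 7 UMIs), -0.91 for Selp and 0.40 for Nr2f2 among the venous. Among the arterial they were -2.03 for Gja5, -1.35 for Bmx, 0.52 for Sox17 and 0.82 for Sema3g. Whether the subsets hold like ECs in both libraries was not tested. Their part in the ratios of the 8 genes was not tested.

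RNA of other cells moved with the libraries. In low-cancer ECs the 8 pericyte markers summed to 394 and 360.5 CPM, the 6 fibroblast markers to 825 and 255 CPM, the 7 macrophage markers to 643 and 883 CPM and the 4 cancer markers to 96.0 and 83.4 CPM, with all markers of these lists found in both libraries. The fibroblast sum reached 37764 CPM in 1 barcode of sGC-Ctr and at most 1946 CPM in sGC-ΔPC, with medians of 116 and 205 CPM. The 6 granulocyte markers summed to 11.2 and 32.5 CPM, with Retnlg at 0 in both. T cell markers summed to 9.49 and 4.17 CPM, natural killer markers to 2.23 and 0 CPM and dendritic markers to 37.4 and 14.2 CPM. The 5 lymphatic markers summed to 109 and 90.1 CPM, with medians per barcode of 53.8 and 34.7 CPM. Of them Flt4 had 137 and 79 UMIs and Lyve1 29 and 29, while Prox1, Ccl21a and Mmrn1 had 4, 17 and 8 UMIs in sGC-Ctr and 0 in sGC-ΔPC. The 4 erythrocyte markers summed to 29.0 and 2.50 CPM. The part of these in the ratios was not tested. Without the barcodes that passed the gate of another class the ratios were -0.51 for Cldn5, -0.43 for Jam2 and -0.18 for Emcn, as large as with them or nearly so.

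The share of ECs with much cancer RNA differed between the libraries, and the summed level of the 9 genes was lower where it was higher. Summed over the 9 genes, ECs with under 237.5 CPM of the 4 cancer markers had 5876 CPM in sGC-Ctr and 5219 CPM in sGC-ΔPC. At 475 to 950 CPM they had 4014 CPM (5 barcodes) and 1914 CPM (18 barcodes), and at 950 CPM or more 1833 CPM (7 barcodes) and 1454 CPM (37 barcodes). The 12 gate markers went from 4539 and 4314 CPM in the first of these bins to 1350.5 and 1223 CPM in the last. Counted per UMI of the gate markers, the 9 genes came to 1.29 in sGC-Ctr and 1.23 in sGC-ΔPC in low-cancer ECs, and to 1.31 and 1.22 in the ECs at or above the limit. Single genes departed from the sum: Plvap in sGC-Ctr had 914 CPM in the lowest bin and 1204 CPM at 475 to 950 CPM of cancer markers, and Pecam1 in sGC-ΔPC had 867 CPM in the lowest bin and 1016 CPM in the next.

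**Figure D5:**
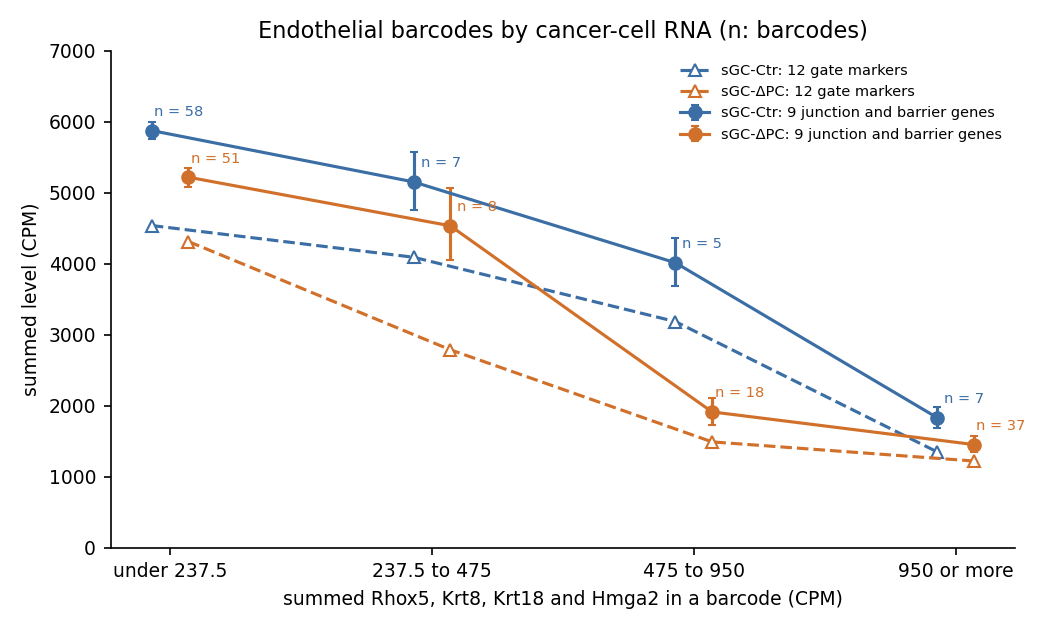
Summed CPM of the 9 junction and barrier genes (circles, with 95% counting intervals) and of the 12 gate markers (triangles) in ECs grouped by the summed CPM of 4 cancer-cell genes, in sGC-Ctr (blue) and sGC-ΔPC (orange). Both sums are lower with more cancer RNA, and the highest bin holds 7 ECs of sGC-Ctr and 37 of sGC-ΔPC.

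Over all gated ECs the ratio between libraries was lower for each of the 8 genes than in low-cancer ECs. Cldn5 had -0.65 (-0.75 to -0.56), Jam2 -0.64 (-0.90 to -0.38), Plvap -0.45 (-0.56 to -0.34), Esam -0.38, Emcn -0.33, Pecam1 -0.26 (-0.37 to -0.16) and Cdh5 -0.23 (-0.32 to -0.13), while Tjp1 had 0.07 (-0.16 to 0.30). Cldn5 and Jam2 passed 1.5-fold lower, 2 of 8 genes against 5.11% of 7541 genes, and none passed it higher, against 5.36%. A ratio below 0 was found in 7 of 8, against 51.4% of all genes, and the median was -0.35 beside -0.01. The 183 EC-restricted genes had a median of -0.28 in this set. Of the 177 EC-restricted genes that are not among the 8, 30 were lower by 1.5-fold and 7 were higher. A ratio below 0 was found in 137 of these 177, so lower ratios in this set were not particular to the 8 genes. Per UMI of the gate markers, Pecam1 and Cdh5 had 0.04 (-0.07 to 0.14) and 0.07 (-0.02 to 0.17) and Emcn -0.03, while Cldn5 had -0.35 (-0.45 to -0.26) and Jam2 -0.34 (-0.60 to -0.08). The ECs at or above the limit, 12 and 55 barcodes, were unlike in depth, with medians of 36204 UMIs in sGC-Ctr and 7459 in sGC-ΔPC. In these barcodes alone, Jam2 had -1.40 (-2.40 to -0.46), Plvap -1.11 (-1.38 to -0.84), Esam -0.87 (-1.27 to -0.48) and Cdh5 -0.67 (-0.95 to -0.40). The part of depth in these ratios was not tested. The share of all genes with ratios this low was not counted in these barcodes. Their gate markers summed to 1873 CPM in sGC-Ctr and 1305 CPM in sGC-ΔPC. Per UMI of the gate markers in these barcodes, Plvap had -0.58 (-0.85 to -0.32) and Emcn 0.62 (0.21 to 1.03). Cldn5 had 191 UMIs in each library, a ratio of -0.40 (-0.69 to -0.10) per UMI of all genes and of 0.13 (-0.17 to 0.42) per UMI of the gate markers.

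Other junction genes were taken as 6 lists of 68 genes, of which 53 had at least 50 UMIs in low-cancer ECs. Of these, 1 was lower and 3 were higher by 1.5-fold, with a median of 0.07 beside 0.01 for all genes, and these counts are near the shares over all genes (4.37% and 5.01%). Over all gated ECs 6 were lower and 1 was higher of 54, with a median of -0.07. Among all genes in that set 5.11% were lower and 5.36% higher, with a median of -0.01. The EC-restricted genes had a median of -0.28 there. The 4 genes past the fold in low-cancer ECs are given as values. Gja5, a connexin of arterial ECs, went from 61 UMIs in the control library to 10 in the other, a log2 ratio of -2.03 (-3.16 to -1.05), while the other 3 gap junction genes did not pass 1.5-fold. Vcl, which encodes vinculin and links junctions under tension to actin, had 128 and 154 UMIs, 0.85 (0.50 to 1.20). Robo4, a guidance receptor that steadies vessels and also a gate marker, had 0.74 (0.46 to 1.03), and Mpdz, a tight junction scaffold, 0.70 (-0.16 to 1.56) from 24 and 26 UMIs. None of 9 surface and adhesion genes and none of 9 genes of caveolae and transport passed that fold, with medians of -0.05 and 0.18. The partners of VE-cadherin stood at -0.36 (-0.53 to -0.20) for Ctnnb1, 0.07 for Ctnna1 and 0.38 (0.07 to 0.69) for Ctnnd1, none past 1.5-fold. Of 20 other tight junction genes, 7 had enough UMIs, and Cgn, Tjp3 and Cldn3 had none in these ECs.

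Over 18 points, the 9 classes in both libraries, the genes whose levels on the log2(CPM + 1) scale ran most like a given gene were named by Pearson correlation among 6545 genes. For Cldn5 they were C1qtnf9 (0.99), Adgrl4 (a gate marker) and Tmem252, for Cdh5 Prnd (0.98), Dll4 and Tie1 (a gate marker), for Esam Pdzd2 (0.98), Adgrf5 and Tspan15, for Emcn Tcf15 (0.97), Pcdh12 and Hey1, and for Plvap Mest (0.96), Exoc3l and Mmp15. Pecam1 ran most like Trp53i11 (0.90), Tnip1 and Sft2d2, and Jam2 like 9530059O14Rik (0.90), Cnksr3 and Hoxb9. Tjp1 ran most like Eml1 (0.98), Hspb8 and Maoa, and Ocln like Hmga2 (0.94) and Rhox5, which served to gate the cancer cells, and Ncl. The 6545 candidates needed at least 50 UMIs in low-cancer ECs, so genes absent from ECs, as Ocln was, could not be named. Outside cancer cells Ocln stood at no more than 0.241 CPM, so its correlations turn on the cancer cell points. These points share libraries and gates, and the correlations are a description.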

How the data were processed

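Single-cell RNA was measured in 2 libraries, sGC-Ctr and sGC-ΔPC. Per the labels and the study's methods, the authors made 3′ libraries on the 10x Genomics platform from 3 pooled tumors per group, processed reads with Cell Ranger 6.1.1 on mm10 and deposited raw UMI counts per gene and barcode, which were used unchanged. The authors' quality control and clusters were not used here. Reads that fit several genes are not counted by Cell Ranger, and 3′ counting does not tell isoforms apart.

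Barcodes with 10% or more mitochondrial UMIs were dropped, as were those whose log UMI or log gene number lay more than 3 scaled median absolute deviations from its library's median. Classes were gated on markers (number found, summed CPM), as follows: endothelial 3 and 1000, pericyte 4 and 2000, fibroblast 3 and 10000, macrophage 4 and 5000, granulocyte 3 and 10000, T cell 3 and 1000, natural killer 3 and 1000, dendritic 3 and 500, cancer 3 and 475. Gate levels were set after the counts were seen. Classes other than endothelial and cancer were limited to barcodes under 475 CPM of cancer markers, and all but endothelial to those in no other gate. No doublet caller was run. CPM was computed over pooled barcodes, with exact Poisson intervals, exact conditional intervals for ratios and exact (Clopper-Pearson) intervals for shares, at 95%. UMI totals of the low-cancer endothelial barcodes were 1791124 and 1198394. Ratios over all genes were limited to genes with 50 or more UMIs over the pair of libraries. Subtypes needed at least 2 markers. The members and gene lists were chosen with earlier results of these data known. Genes named outside the 9 members are those of a list past 1.5-fold, the 3 most alike in pattern, the gate and subtype markers, and, chosen after their values were seen, Ctnnb1, Ctnna1, Ctnnd1, Cgn, Tjp3 and Cldn3.

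Steps were tested on simulated data: of 6545 genes drawn for the low-cancer endothelial comparison, 200 of them changed, 95.8% of intervals held the true ratio. The simulated counts were pooled and held counting error alone, with no spread among barcodes or tumors. The result therefore checks only how the intervals are computed, and not whether they cover such spread. Gene positions are from GENCODE vM21 (GRCm38). Python 3.11.15, numpy 2.4.6, scipy 1.17.1 and pandas 2.3.3 were used. Alternatives were other limits on cancer RNA, other gates, filters, weights, thinning and scalings.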

Additional observations from a re-analysis of the deposited data

How the results depend on the processing

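With 1 library of pooled tumors a group, variation between tumors cannot be seen, and all intervals cover counting error of PCR-amplified but UMI-collapsed reads only. The 13 other settings include double the limit on cancer RNA and no limit, which take in ECs that are not low-cancer ECs. No limit gave the lowest ratio for Cldn5, Emcn, Plvap, Esam, Pecam1 and Cdh5. Over the 13 settings the log2 ratio stayed below 0 for Cldn5 (-0.65 to -0.40), Jam2 (-0.75 to -0.17), Emcn (-0.33 to -0.12), Plvap (-0.45 to -0.09) and Esam (-0.38 to -0.04). It stayed above 0 for Tjp1 (0.02 to 0.61). Of the 11 settings that give an interval, the interval held 0 in 7 for Tjp1 and in 7 for Esam. It held 0 in 3 for Jam2, in 2 for Emcn, in 2 for Plvap and in 0 for Cldn5. Pecam1 (-0.26 to 0.21) and Cdh5 (-0.23 to 0.11) took either sign. Cldn5 passed 1.5-fold in 4 of the 13 and Jam2 in 2. Without the 5 deepest barcodes of each library, which held 19.5% and 26.3% of the UMIs, Cldn5 had -0.65; this setting and the scaling per UMI of the gate markers (-0.40) were added after seeing the data. With the mean of each barcode's CPM, Jam2 had -0.75 and Cldn5 -0.60. The Jam2 mean of sGC-Ctr takes in 1 barcode at 2113 CPM, which was not left out. The median over the 8 genes, -0.16, came to -0.35 with no limit on cancer RNA; the cause was not tested. The share of all genes lower by 1.5-fold, 4.37%, came to 12.1% with at least 1 UMI in each library and to 1.75% with at least 200 UMIs, and the share higher, 5.01%, to 12.7% and 2.35% (cause not tested). No paired analysis was possible because each group has 1 library.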
